A study of Rattus norvegicus with 6 samples.

Results

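The phagocyte NADPH oxidase was examined through 6 genes of the 30957 listed in the deposited gene table, chosen by name: Cybb and Cyba, Ncf1, Ncf4, Rac2 and Hvcn1. All 6 were found, and all 6 passed the filter on low counts that left 14908 genes for testing. Ncf4 and Hvcn1 reached the minimum of that filter in all 3 BCP libraries but in 1 and 2 sham libraries, so they passed through the group where they were higher. The oxidase, also called NOX2, carries electrons from NADPH across a membrane to oxygen and so makes superoxide. Its catalytic chain gp91phox (Cybb) and partner p22phox (Cyba) form cytochrome b558 in the membrane; the organizer p47phox (Ncf1) and p40phox (Ncf4) wait in the cytosol, and a Rac GTPase joins the complex when the cell is activated. Hvcn1 is the voltage-gated proton channel that carries protons out to balance the electrons. The enzyme is best known from neutrophils and macrophages, and in the spinal cord microglia are its main source.

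RNA-seq was made from the ipsilateral side of the lumbar enlargement, with the meninges removed, of female Wistar rats on day 14 after inoculation. BCP (bone cancer pain) rats had received living Walker 256 cells, a rat mammary carcinoma line, in the medullary cavity of the left tibia, and the sham operation used heat-killed cells of that line, so that the groups shared the surgery and the inoculation and differed in whether the cells were alive. There were 3 libraries in each group, with 11779485 to 15004290 counts on genes per library. The tissue is a mixture of cells, so more cells of a type and more RNA per cell cannot be told apart, and the labels do not say whether a library came from 1 rat or from several, so p-values and SDs measure only the spread between these libraries.

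All 6 genes were higher in BCP rats. The rise ran from 3.12-fold for Hvcn1 to 12.5-fold for Ncf1 as the ratio of mean FPKM (fragments per kilobase of gene model scaled to the fragments mapped), and the FPKM of the 6 genes summed to 15.6 ± 2.29 in sham libraries and 131 ± 19.8 in BCP libraries (SD, n = 3 each). Each gene passed an adjusted p-value under 0.05 with more than a 2-fold change (edgeR quasi-likelihood test, adjusted over all genes tested), where 6.35% of tested genes were called higher. For each of the 6, every BCP library stood above every sham library, which was true of 21.7% of tested genes. Among the 14908 tested genes, the rank by p-value was 76 for Cyba, 94 for Rac2, 232 for Ncf4, 330 for Ncf1, 947 for Cybb and 2103 for Hvcn1.

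**Figure D1:**
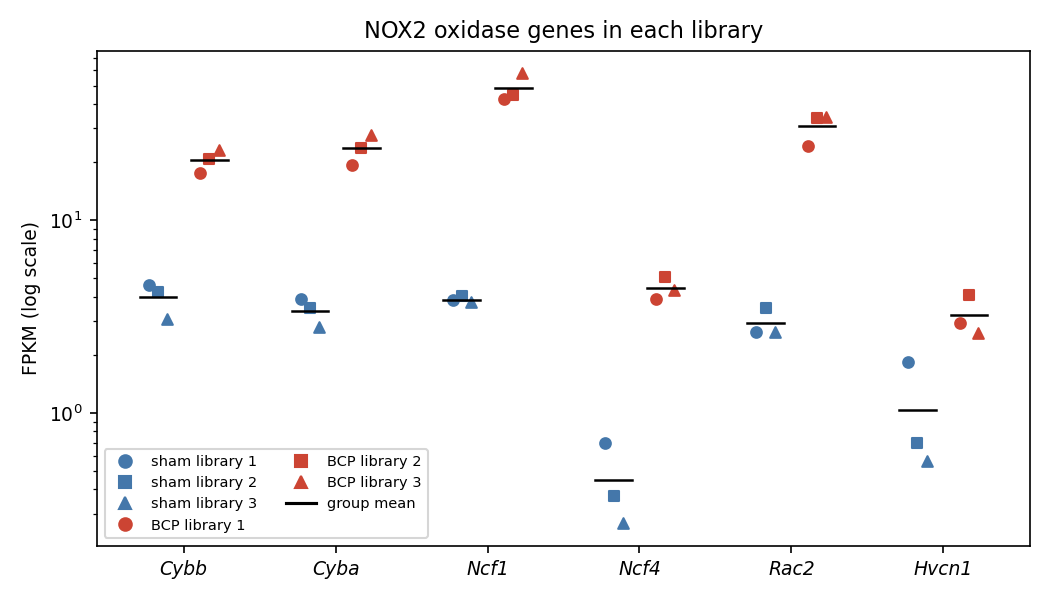
FPKM (log scale) of the 6 oxidase genes in each of 3 sham and 3 BCP libraries, with marker shapes for the library number and a bar at the group mean. The BCP points lie above the sham points for every gene, with Ncf1 highest at 48.4 on average and the nearest approach in Hvcn1, where sham library 1 reached 1.83 and BCP library 3 only 2.60.

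Promoter sequence was at hand for the 2 membrane chains and for Ncf1, the gene with the largest rise, and the 250 bases before each start are shown so that the letters can be compared. They come from RefSeq on the GRCr8 build, whereas positions of genes below are on Rnor_6.0. They lie at chrX:16065066-16065315 on the minus strand, chr12:28121635-28121884 on the plus strand and chr19:67404215-67404464 on the minus strand. Each is read 5′ to 3′ toward the start, and capitals mark matches to the motifs searched.
Cybb: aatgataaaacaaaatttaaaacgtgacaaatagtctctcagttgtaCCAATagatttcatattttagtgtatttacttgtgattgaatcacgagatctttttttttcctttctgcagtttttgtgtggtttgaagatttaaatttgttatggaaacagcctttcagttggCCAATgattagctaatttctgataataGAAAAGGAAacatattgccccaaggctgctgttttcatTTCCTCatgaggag
Ncf1: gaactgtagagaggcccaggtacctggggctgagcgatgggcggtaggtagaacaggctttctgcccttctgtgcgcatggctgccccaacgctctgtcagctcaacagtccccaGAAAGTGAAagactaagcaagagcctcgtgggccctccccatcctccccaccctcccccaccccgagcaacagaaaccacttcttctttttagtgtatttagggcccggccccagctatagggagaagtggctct
Cyba: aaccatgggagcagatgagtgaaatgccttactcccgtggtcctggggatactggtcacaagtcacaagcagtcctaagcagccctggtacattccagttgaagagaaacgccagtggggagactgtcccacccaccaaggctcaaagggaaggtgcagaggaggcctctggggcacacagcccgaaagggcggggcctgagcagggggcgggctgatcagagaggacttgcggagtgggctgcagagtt
4 motifs were searched on both strands: GAGGAA (a PU.1 core), GAAANNGAA (an ISRE-like spacing), TTCNNNGAA (a GAS-like palindrome) and CCAAT. No matches overlapped. The Cybb window held a PU.1 core in reverse orientation whose first letter was 14 bases before the start, 1 ISRE-like match at 52 bases and CCAAT at 203 and 79 bases before it. The Ncf1 window held 1 ISRE-like match at 135 bases before the start, and the Cyba window held none of the 4. Of 27457 windows of the same length, 23.2% held the PU.1 core, 7.99% the ISRE-like letters, 7.52% the GAS-like letters and 34.3% CCAAT. These matches describe letters only. The Cybb window was 32% G and C, the Ncf1 window 58.4% and the Cyba window 59.6%.

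The 2 chains of cytochrome b558 rose together. Cybb (ENSRNOG00000003622, chrX:14578264-14612547) stood at 20.1, 18.3 and 13.4 CPM (counts scaled to library size, with TMM factors) in sham libraries 1, 2 and 3 and at 75.0, 87.6 and 97.1 in BCP libraries 1, 2 and 3. The groups were far apart, with sham library 3 the lowest of all. Its log2 fold change was 2.33 (SE 0.16, edgeR adjusted p = 6.00e-05). Cyba (ENSRNOG00000013014, chr19:55249616-55257876), whose product stabilizes gp91phox and docks the organizer, gave 3.05, 2.72 and 2.16 CPM in sham libraries and 14.9, 18.0 and 20.8 CPM in BCP libraries. The order of the libraries was that of Cybb, again without overlap of the groups. The log2 fold change of Cyba was 2.76 (SE 0.18, edgeR adjusted p = 3.51e-10). Cyba had fewer counts, 32 to 40 in a sham library against 198 to 263 for Cybb, but its gene model is also shorter, 768 bases against 4277, and per length the mean sham levels were 3.39 ± 0.57 and 3.97 ± 0.79 FPKM (SD, n = 3).

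Ncf1 rose most of the 6. This organizer (ENSRNOG00000001480, chr12:25497104-25506300), whose phosphorylation starts assembly, measured 11.9, 12.4 and 11.6 CPM in sham libraries and 129, 134 and 173 CPM in BCP libraries. The sham libraries were almost level and BCP library 3 was the highest. The log2 fold change was 3.60 (SE 0.13, edgeR adjusted p = 3.02e-07). Ncf4 (ENSRNOG00000006940, chr7:119482272-119499425), which binds a phosphoinositide of the phagosome, was the least abundant in sham libraries, with 14, 8 and 6 counts in those libraries and 69, 104 and 84 in BCP libraries. No sham library reached a BCP library, and sham library 1 was the highest of its group. Its log2 fold change of 3.28 carried a larger error (SE 0.30, edgeR adjusted p = 4.67e-08), and it was not tested where at least 10 counts were asked of every library.

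Rac2, the Rac GTPase of blood-derived cells (ENSRNOG00000007350, chr7:119783849-119797098), followed Ncf1 in size of change. It stood at 3.66, 4.82 and 3.65 CPM in sham libraries and at 32.8, 45.7 and 45.8 CPM in BCP libraries. Sham library 2 was the highest sham library and BCP library 1 the lowest BCP library, with a wide gap between them. The log2 fold change was 3.36 (SE 0.16, edgeR adjusted p = 1.01e-09).

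Hvcn1 rose least and with the widest spread. The proton channel gene (ENSRNOG00000001270, chr12:39822637-39850567) had 29, 12 and 10 counts in sham libraries and 41, 67 and 40 in BCP libraries. In CPM these were 2.21, 0.84 and 0.68 against 3.47, 4.79 and 3.03, so that sham library 1 lay nearer to the lowest BCP library than to the other sham libraries. The log2 fold change was 1.63 (SE 0.36, edgeR adjusted p = 0.00275). It was 2.31 without sham replicate 1 and 1.32 without sham replicate 3, and it did not pass a test against a fold change of 2 (edgeR adjusted p = 0.32). Its span shares 1428 bases with Tctn1, a gene of the ciliary transition zone that stood at 321 to 344 counts in sham libraries and 226 to 267 in BCP libraries, and whether reads of the shared bases were split by strand is not given in the sources used here.

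Levels can be compared between the genes per length. In sham libraries the mean FPKM fell in the order Cybb 3.97, Ncf1 3.87, Cyba 3.39, Rac2 2.93, Hvcn1 1.03 and Ncf4 0.45, and the libraries of the first 4 overlapped from each to its neighbour, as did those of Hvcn1 and Ncf4. In BCP libraries the order was Ncf1 48.4, Rac2 30.9, Cyba 23.6, Cybb 20.5, Ncf4 4.43 and Hvcn1 3.21. Ncf1 did not overlap with Rac2 there, nor Cybb with Ncf4, while Rac2, Cyba and Cybb overlapped from each to its neighbour, as did Ncf4 and Hvcn1. Cybb led in sham libraries and stood below Ncf1, Rac2 and Cyba in BCP libraries, and Hvcn1 stood above Ncf4 in sham and below it in BCP libraries.

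The shares of the 6 genes in their summed level differed between the libraries of the groups. Of the summed FPKM of the 6 genes, Cybb made up 25.3 ± 1.46% in sham and 15.7 ± 0.25% in BCP libraries, and Ncf1 made up 25.1 ± 3.37% and 37.0 ± 2.75% (SD, n = 3). The ratio of Ncf1 to Cybb FPKM was 0.83, 0.95 and 1.21 in sham libraries and 2.41, 2.15 and 2.51 in BCP libraries. The ratio of Rac2 to Cybb was 0.57, 0.83 and 0.86 in sham libraries and 1.37, 1.64 and 1.48 in BCP libraries. Cyba kept closest to Cybb, at 0.83 to 0.90 in sham and 1.11 to 1.19 in BCP libraries. As log2 of the count ratio, the difference between groups was 1.25 for Ncf1, 1.00 for Rac2, 0.97 for Ncf4 and 0.41 for Cyba, without overlap of the groups for any of these 4. Each gave p = 0.1 in an exact two-sided permutation test, the smallest that 3 against 3 libraries allow, and 0.125 after adjustment over the 5 ratios, so none could reach 0.05. For Hvcn1 the difference was -0.60, the groups overlapped, and the exact permutation p was 0.4.

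**Figure D2:**
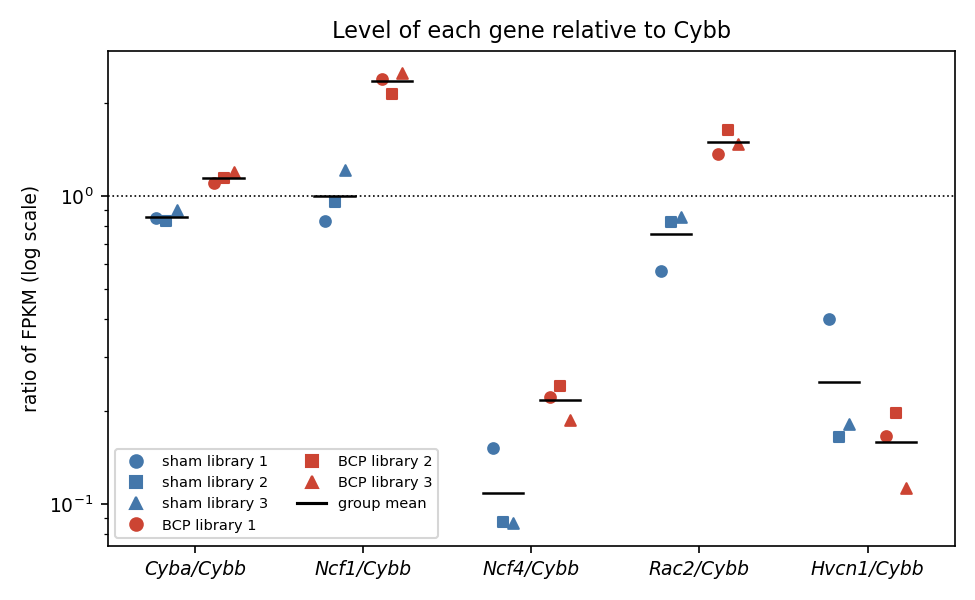
Ratio of the FPKM of each gene to that of Cybb (log scale) in each library, with a bar at the group mean and a dotted line at equal levels. Ncf1, Rac2 and Cyba are above the line in all BCP libraries, at 2.15 to 2.51, 1.37 to 1.64 and 1.11 to 1.19, whereas the Hvcn1 points of the groups mix.

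Other oxidases and other Rac proteins were read for comparison. Rac1, the Rac protein of most cells, had 1801 to 2032 counts in sham and 1649 to 1933 in BCP libraries, with a log2 fold change of 0.04 (edgeR adjusted p = 0.595). Rac3, a neuronal relative, gave -0.13 (adjusted p = 0.504) and Nox4, a catalytic chain that needs p22phox but no cytosolic subunit, gave -0.13 (adjusted p = 0.739), both by edgeR. Nox1, Nox3, their organizer and activator genes Noxo1 and Noxa1, the dual oxidases Duox1 and Duox2 and the maturation factors Duoxa1 and Duoxa2 had at most 9 counts in any library and were not tested, and Duoxa2 had none.

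The signaling that assembles the oxidase moved in part. Of 26 such genes tested, 11 were called higher and none lower, where 6.35% of all tested genes were called higher. The median log2 fold change was 0.25 against -0.01 over all genes. The guanine nucleotide exchange factor Vav1 (2.90, SE 0.17), the kinase Btk (3.12, SE 0.21), the phospholipase Plcg2 (2.32, SE 0.14) and the phosphoinositide 3-kinase subunits Pik3r5 (2.44, SE 0.15) and Pik3cg (1.91, SE 0.09) rose on the log2 scale. So did Arhgdib, a dissociation inhibitor that holds Rac2 in the cytosol (2.36, SE 0.14), Prkcd, a kinase of p47phox (1.28, SE 0.09), and Pla2g4a, which frees arachidonic acid (1.29, SE 0.10). Of the other 15 genes, 3 more had an adjusted p under 0.05 with a rise of less than 2-fold, Rap1b (0.64), Prex1 (0.28) and Arhgdia (0.22), and Prkca (-0.25) and Tiam1 (-0.23) fell by less than 2-fold. The remaining 10 did not pass, among them Vav2 (-0.06), Vav3 (0.01) and Akt1 (0.01).

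**Figure D3:**
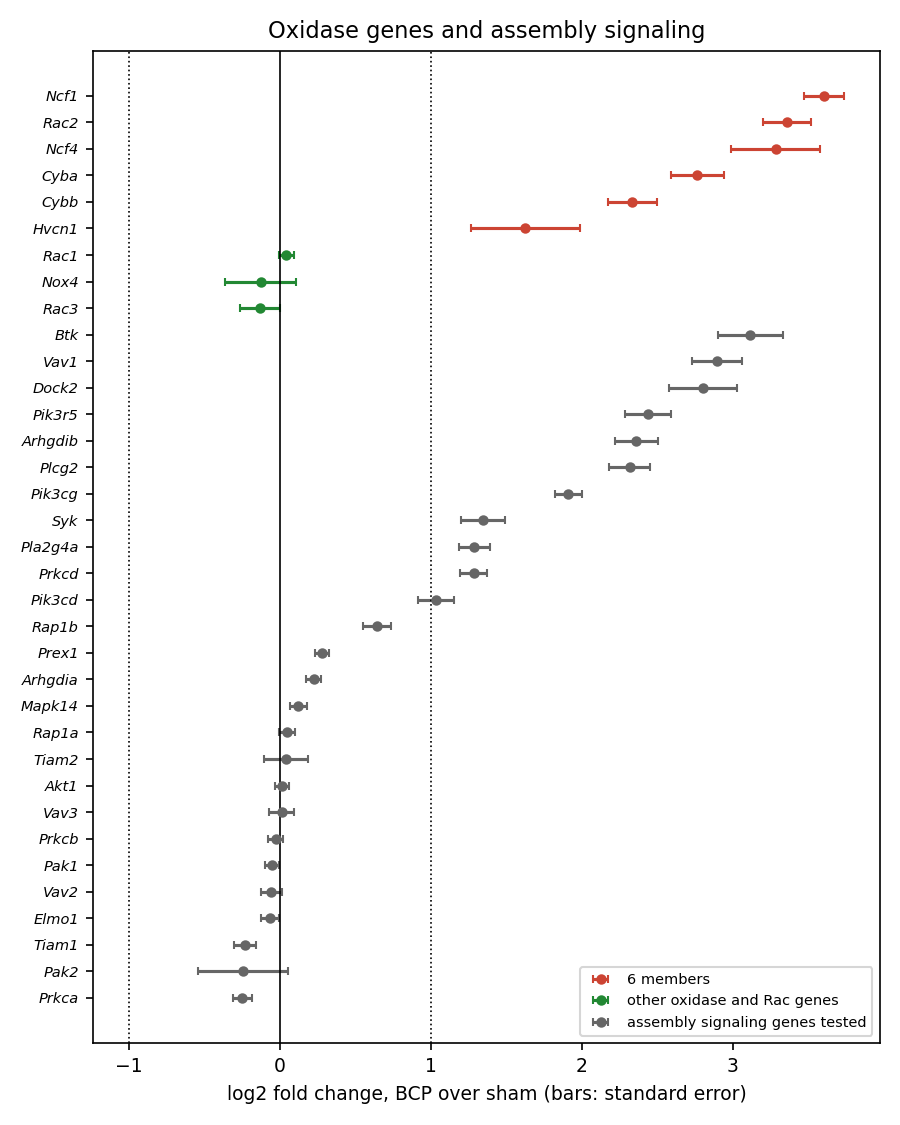
Log2 fold change of BCP over sham (points) with standard error (bars) for the 6 oxidase genes, the other oxidase and Rac genes shown and the 26 assembly signaling genes tested, with dotted lines at a 2-fold change. Ncf1 leads at 3.60, and Rac1, Nox4 and Rac3 lie at 0.04, -0.13 and -0.13.

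The genes that dispose of superoxide and peroxide moved little. Of 29 tested, Hmox1, the heme-degrading enzyme, was the 1 called higher, where 6.35% of all tested genes were. Its log2 fold change was 1.23 (SE 0.17, edgeR adjusted p = 4.12e-05), and the median of the 29 was 0.07. Slc7a11, the cystine importer (0.49, SE 0.05), and thioredoxin Txn1 (0.76, SE 0.12) rose by less than 2-fold with adjusted p of 7.02e-07 and 5.64e-05 by edgeR. Prdx2 (-0.18), Gpx4 (-0.14) and Prdx6 (-0.18), enzymes that reduce peroxides, fell by less than 2-fold, with edgeR adjusted p of 0.0056, 0.0247 and 0.0253. Gpx1, another enzyme that reduces peroxides, rose by less than 2-fold (0.45, SE 0.07, edgeR adjusted p = 8.80e-05). The superoxide dismutases Sod1, Sod2 and Sod3 gave log2 fold changes of -0.12, 0.10 and -0.13 and did not pass. Of 10 tested genes that supply NADPH, 0 were called by edgeR's quasi-likelihood test, and likewise 0 by DESeq2 and 0 by edgeR's exact test, while 4 had an unadjusted p under 0.05. The transhydrogenase Nnt (log2 fold change 0.27, edgeR adjusted p = 0.00106) and H6pd (0.32, adjusted p = 0.0237) rose by less than 2-fold. Of the malic enzymes, Me2 rose (0.18, edgeR adjusted p = 0.0302) and Me1 fell (-0.14, adjusted p = 0.0305), both by less than 2-fold. The median of the 10 was 0.08.

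Markers of the cells that carry the oxidase moved with it. Of 17 microglial markers, all tested, 9 were called higher, where 6.35% of all tested genes were. Their median log2 fold change was 1.14, with a range of -0.65 to 2.88. Their summed level was 436 to 544 CPM in sham and 1197 to 1456 CPM in BCP libraries. Aif1 (2.40), C1qa (2.24), C1qb (2.43) and Tyrobp (2.20) rose about as much as Cybb on the log2 scale, Cx3cr1 (1.42) and P2ry13 (1.14) rose less, and Tmem119 gave 0.19 without passing. Sham library 3, lowest of its group for all 6 oxidase genes, was also lowest for this sum, and BCP library 1, lowest of its group for 5 of 6, likewise. Divided by the summed microglial CPM, a scaling chosen after the data were seen, the log2 difference was 2.20 for Ncf1, 2.0 for Ncf4, 1.97 for Rac2, 1.37 for Cyba and 0.95 for Cybb, with no overlap between groups (exact permutation p = 0.1 each, the smallest possible). For Hvcn1 it was 0.39 with overlapping groups (exact permutation p = 0.6).

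Markers of T cells and neutrophils had higher sums in BCP libraries. Most of those tested had few or no counts in sham libraries and passed the filter on low counts through the BCP libraries, so their levels are given without counts of calls. The 10 T cell genes summed to 6.08 to 6.77 CPM in sham and 53.0 to 61.1 CPM in BCP libraries. Cd4 made up most of the sum in sham libraries, at a mean of 5.09 CPM. It was also the largest single part in BCP libraries, at a mean of 21.9 CPM. Cd3e, a chain of the T cell receptor complex, had 0, 0 and 1 counts in sham and 56, 104 and 111 in BCP libraries. The sum of 14 neutrophil genes went from 9.53 to 11.4 CPM up to 59.6 to 82.2 CPM. Most of that sum in BCP libraries was Fcnb, with 312 to 673 counts, and Csf3r, with 282 to 421, and in sham libraries Csf3r with 118 to 131. The other genes of this list had at most 24 counts in any library. S100a8 had 1, 0 and 0 counts in sham and 23, 15 and 10 in BCP libraries. Mmp8 had 2, 0 and 2 against 24, 18 and 5. S100a9 had 0, 2 and 3 against 15, 9 and 10, and Cxcr2 0, 0 and 1 against 11, 4 and 6. The groups did not overlap in CPM for these genes, Ngp and Mmp9, but did for Mpo, Elane, Camp, Cd177 and Retnlg. Elane had 3, 2 and 0 counts in BCP libraries, and Ltf had 0 in all 6 libraries. Of 12 monocyte and border macrophage genes 9 were tested and 3 called higher, where 6.35% of all tested genes were. Their median log2 fold change was 0.17, and the sum was 392 to 412 CPM in sham and 881 to 1124 CPM in BCP libraries. Most of the sum was lysozyme Lyz2 (log2 fold change 3.88), Fn1 and Vcan, at mean levels of 532, 236 and 209 CPM in BCP libraries. The border macrophage markers Mrc1, F13a1, Cd163 and Lyve1 gave 0.17, -0.15, -0.27 and -0.52 and did not pass. Ccr2, a receptor of recruited monocytes, had 0 counts in each sham library and 1 in each BCP library, over a gene model of only 286 bases in the deposited table, so its counts say little about its level. Of 7 B and plasma cell genes, Cd22 alone was tested (log2 fold change 0.72, not called), and the sum was 2.59 to 4.12 CPM in sham and 4.73 to 6.93 CPM in BCP libraries. Of 5 red blood cell genes tested 4 were called higher, with sums of 178 to 186 CPM and 313 to 478 CPM. The part of these cells in the rise of the oxidase genes was not tested. The medians of neuronal, astrocyte, oligodendrocyte and endothelial markers were -0.18, 0.03, -0.39 and -0.06 on the log2 scale. With an edgeR adjusted p under 0.05, 6 of 12 neuronal, 3 of 8 astrocyte and 7 of 8 oligodendrocyte markers fell. Of all 14908 tested genes, 1805 did. At that cutoff the astrocyte marker Gfap (0.80) and the endothelial marker Vwf (0.41) rose. All these marker changes were under 2-fold. Aqp4 (1.53, not called) had 28568 counts in BCP library 1 against 5037 and 4775 in BCP libraries 2 and 3.

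**Figure D4:**
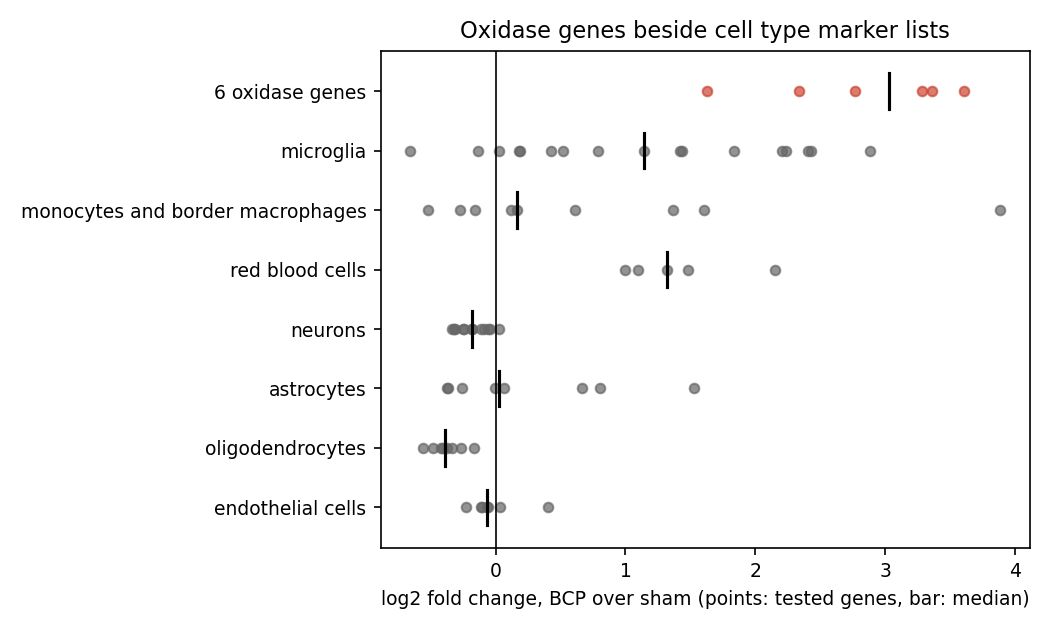
Log2 fold change of BCP over sham for the tested genes (points) and the median (bar) of the 6 oxidase genes and of 7 cell type marker lists. The oxidase genes, at 1.63 to 3.60, overlap the upper range of microglial markers, at -0.65 to 2.88.

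Genes with the profile nearest to the mean of the 6 oxidase genes were sought over the 6 libraries, as the root mean square distance of centred log2 CPM. Among the nearest 5 were Prdm1, a transcriptional repressor of lymphoid and myeloid cells (distance 0.067, log2 fold change 2.78), Hcar2, the receptor of niacin and ketone bodies (0.069, 2.77), and Dock2, a Rac exchange factor of leukocytes (0.11, 2.80). The 6 genes themselves lay at 0.097 (Cyba), 0.23 (Cybb), 0.24 (Ncf4), 0.35 (Rac2), 0.45 (Ncf1) and 0.67 (Hvcn1), and the median of the other tested genes was 1.41. Each of the 6 is part of the mean it is set against, which shortens its distance, and the other genes are not. Because the libraries fall into their 2 groups, likeness to this mean is mostly that of the difference between groups.

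Of the 24 nearest tested genes, 2 on each side of each member, 2 were called higher (8.33%), close to the 6.35% of all tested genes. They were Csf2rb after Ncf4 and Cyth4 after Rac2. Csf2rb, a receptor chain for colony-stimulating factor, begins 54929 bases from Ncf4 and had a log2 fold change of 3.47, and Cyth4, an exchange factor of blood cells, begins 23439 bases from Rac2 and had 1.77. Ncf4 and Rac2 are themselves near each other on chromosome 7, with 284423 bases between them. Of 7 tested genes in that interval, Csf2rb and Il2rb (3.46) were called higher and the median was 0.06. Beside Cyba, Mvd at 1029 bases and Zc3h18 at 7765 bases gave -0.18 and 0.12, and beside Ncf1, Gtf2ird2 at 3353 bases gave -0.29, none of them called.

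8 lncRNA transcripts lay within 10 kb of a member, 5 of them at Hvcn1 and 1 each at Ncf1, Ncf4 and Rac2. Of these 2 were tested and 0 called by edgeR's quasi-likelihood test, where 1.22% of 12157 tested lncRNAs were called, and 1 of the 2 had an unadjusted p under 0.05. That was NONRATT007994.2, which overlaps the spans of Hvcn1 and Tctn1, with 10, 17 and 13 counts in sham and 31, 26 and 30 in BCP libraries. The groups did not overlap, and its log2 fold change was 1.27 (SE 0.30, edgeR adjusted p = 0.0896). It was called by edgeR's exact test (adjusted p = 0.0137) and not by DESeq2 (adjusted p = 0.323). The other, NONRATT007539.2, gave -0.41 (edgeR adjusted p = 0.574). The 6 left untested had at most 7 counts in any library.

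2 distant lncRNAs that the study's text links to members were called higher. The study took them from its own differentially expressed lncRNAs of these same libraries, so the calls here add no separate evidence. The study also measured both, and Cybb, by RT-qPCR in samples separate from those sequenced, and reported all of them as higher. It proposes the links as possible regulation only, for NONRATT004661.2 of Ncf1 or ccl9. NONRATT026544.2 (chr7:12763477-12764429), linked with Cybb, had 37, 29 and 38 counts in sham libraries and 78, 133 and 128 in BCP libraries, with a log2 fold change of 1.83 (SE 0.22, edgeR adjusted p = 0.00737). NONRATT004661.2 (chr10:70310274-70312073), linked with Ncf1, had 39, 55 and 26 counts in sham libraries and 263, 462 and 341 in BCP libraries, with a log2 fold change of 3.27 (SE 0.34, edgeR adjusted p = 0.0114). The call of NONRATT026544.2 was lost against a fold change of 2 (edgeR adjusted p = 0.129). That of NONRATT004661.2 was lost against a fold change of 2 (edgeR adjusted p = 0.0522), without sham replicate 1 (0.0782) and without BCP replicate 3 (0.0574). DESeq2 called both lncRNAs, with adjusted p of 2.37e-06 for NONRATT026544.2 and 2.22e-27 for NONRATT004661.2. So did edgeR's exact test, with adjusted p of 3.04e-06 and 8.76e-12 in that order. In both lncRNAs, every BCP library was above every sham library, and neither lies on the chromosome of the member it is linked with.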

How the data were processed

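3 sham and 3 BCP spinal cord RNA-seq libraries were analysed. Per the labels and the study's methods, the authors removed ribosomal RNA, prepared strand-specific libraries, filtered reads with Seqtk and mapped them to Rnor_6.0 with HISAT2 2.0.4. StringTie 1.3.0 served for expression. The authors deposited unnormalized counts and FPKM values per gene and per lncRNA transcript, as used here. The tool that counted reads and its use of strand are not given in the sources used here. Groups and replicate numbers came from the sample titles.

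Counts were tested with edgeR 4.0.16 (R 4.3.3): TMM scaling, the filter by expression, and a robust quasi-likelihood fit on group, with Benjamini-Hochberg adjustment over all genes or all lncRNAs. Genes were called where the adjusted p was under 0.05 and the log2 fold change exceeded 1 in either direction. Standard errors are the log2 fold change divided by the root of F. FPKM served for levels between genes, without a test. Ratios to Cybb used counts plus 0.5. Counting error grows as counts fall, and PCR duplicates, if kept, would make counts less independent. The code was tested on simulated data.

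The members, lists and motifs were chosen with earlier results of these data known. The text names all 6 members, the oxidase family, up to 6 called genes and 2 further ones per list by p-value, lncRNAs within 10 kb and the 5 nearest profiles; some genes this selects are not reported here. Other list genes and the neighbours were named after their values were seen. Alternatives were DESeq2 1.42.0, edgeR's exact test, upper-quartile and library-size scaling, 2 filters, 2 fold rules, a replicate block, each library left out, and microglial scaling.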

Additional observations from a re-analysis of the deposited data

How the results depend on the processing

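All 6 members were called higher under the main fit, and their count stayed within 1.5 times of 6 in each of the 15 alternatives. Hvcn1 failed the test against a fold change of 2, and Ncf4 was not tested with at least 10 counts in every library. Over the alternative fits the log2 fold change ran from 2.18 to 2.45 for Cybb, 2.63 to 2.88 for Cyba, 3.46 to 3.69 for Ncf1, 3.01 to 3.74 for Ncf4, 3.28 to 3.50 for Rac2 and 1.32 to 2.31 for Hvcn1. The lncRNAs near members called rose from 0 to 1 with edgeR's exact test and with at least 10 counts in every library. Genes called higher went from 946 to 548 with the test against a fold change of 2 and to 2352 with no fold threshold. Genes called lower went from 16 to 37 with no filter, 6 with at least 10 counts in every library, 1805 with no fold threshold, and 0 with edgeR's test against a fold change of 2, where 4 had an unadjusted p under 0.05. With each library left out, genes called lower ranged from 16 to 33 (33 without BCP replicate 1 and 25 without sham replicate 2). Microglial scaling, added after the data were seen, lowered each member's difference as given above.

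The libraries of the groups share replicate numbers. Same-numbered libraries did not deviate together (r = -0.105, 0.0439 and -0.0353 over genes for numbers 1, 2 and 3), so the numbers were not taken as pairs. With the replicate block 907 genes were called higher and 16 lower, all 6 members stayed called, NONRATT026544.2 lost its call (edgeR adjusted p = 0.0598), and Hvcn1 had a log2 fold change of 1.66 (edgeR adjusted p = 0.00267). The ratios to Cybb gave a smallest possible p of 0.25 by exact sign flips of 3 pairs.

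Ncf4 and Hvcn1, with 6 to 29 counts per sham library, are the least certain levels in sham libraries, where their relative spread was the widest of the 6. Duoxa2 had 0 counts and the other untested oxidases at most 9, and small changes in them were not detectable at this depth. With no filter, none of those with counts passed (Noxo1 had a log2 fold change of -2.49, edgeR adjusted p = 0.0999).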
